A study of Mus musculus with 2 samples.

Results

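Collagen genes were followed through the cell types of the mouse dorsal root ganglion, the cluster of sensory neuron bodies beside the spinal cord. The members were all 44 genes, of 31253 in the count matrices, whose symbol is Col, a number, a and a number with nothing after it. That rule used no measured value, though the collagens were chosen for study with earlier results of these data known. They comprised 11 fibrillar genes, 9 fibril-associated genes, 6 genes each of the basement membrane network (type IV) and the beaded filament (type VI), 4 transmembrane genes, 3 short-chain network genes, 3 anchoring and other genes and 2 multiplexins. The data were droplet-based single-cell RNA libraries of lumbar ganglia (L4-5) from wild-type mice aged 8 weeks. The only group was acetone-ether-water (AEW), a dry skin model, and it held 2 libraries, called replicates 1 and 2. No untreated group was analysed here, so cell types within the libraries were compared, not AEW with another state. The labels name the cells neurons, yet most cells carried markers of other types. Whether each library came from its own animals is not stated in the labels, so p-values measure only a spread between libraries that may be technical. The tissue was digested with Liberase and papain before the cells were captured.

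Collagens are secreted or membrane-bound proteins in which 3 chains wind into a triple helix. Fibrillar collagens form the tension-bearing fibres of connective tissue, and fibril-associated collagens decorate those fibres. Type IV collagen forms the mesh of basement membranes, the sheets that line vessels and surround Schwann cells and the satellite glia that wrap neuron bodies, while type VI collagen links such sheets to the fibres around them. In peripheral nerve the endoneurium, perineurium and epineurium are layers of collagen-rich connective tissue.

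Replicate 1 held 113251556 UMIs (unique molecular identifiers, each a captured RNA molecule) in 8818 barcodes and replicate 2 held 102347251 in 11767. After filtering, 7774 and 10270 cells were kept, with 24 barcodes shared by the deposited libraries and 21 by the kept cells. Cells were assigned to types from marker genes that included no collagen, giving 9 types: fibroblasts (219 and 392 cells in replicates 1 and 2), perineurial cells (23 and 47), pericytes (187 and 249), smooth muscle (77 and 101), endothelial cells (350 and 745), myelinating Schwann cells (1032 and 585), non-myelinating Schwann cells (316 and 186), satellite glia (2275 and 2518) and neurons (607 and 897). Type names stand for cells that met these marker rules. In both libraries at least 8 markers of each type, of 9 to 15, were higher in it than in the other 8 types. The same markers had assigned the cells, so this result follows largely from the selection and is no independent check of the names. Some neurons lay within 0.02 of the score cut that set their class apart (86 and 170), against at most 17 cells of any other of these types and library, and 2219 and 3731 cells met no rule. Perineurial cells still held fibroblast markers at medians of 339 and 288 UMIs per 10000, against 1224 and 866 in fibroblasts and 22.8 and 27.6 of their own markers. Non-myelinating Schwann cells held myelinating markers at medians of 46.2 and 40.7 and satellite glia markers at 24.6 and 32.9, against 57.6 and 41.8 of their own. A collagen level below is a gene's UMIs per 10000 UMIs of all cells of a type summed within a library. The 3′ libraries give a captured molecule a single UMI whatever its length, so levels of different genes were not scaled by length, though capture can differ between genes.

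Fibroblasts held by far the most collagen, 256 UMIs per 10000 in replicate 1 and 163 in replicate 2. Perineurial cells followed with 89.7 and 81.4, then non-myelinating Schwann cells with 51.3 and 28.2 and pericytes with 43.8 and 29.6. Smooth muscle (27.1 and 17.7), myelinating Schwann cells (24.1 and 16.5), satellite glia (16.5 and 14.1) and endothelial cells (15.3 and 9.61) followed, and the libraries of each overlapped with those of the next in this order. From smooth muscle to endothelial cells the order was the same within each library. Overlap, here and below, compares values without pairing them by library, so groups that overlap can still differ in the same direction in both. Neurons stood lowest at 0.909 and 0.762. Macrophages, neutrophils, B cells and erythroid cells, which served as a reference level, lay between 0.912 and 3.65 with a median of 1.21. The highest of these values, of neutrophils in replicate 1, rested on 128 UMIs in 14.3% of 63 cells. The neuron total was thus just below the lowest of those values. Whether the reference types make some collagen themselves was not tested. B cells, for example, held Col5a3 at 0.521 and 0.226, above their Col1a2 at 0.0652 and 0.180. Replicate 1 was above replicate 2 in all 9 types, from 1.10 times in perineurial cells to 1.82 times in non-myelinating Schwann cells. The fits carry a library term.

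The makeup of collagen differed between types. Fibrillar genes gave 80.3% and 77.0% of fibroblast collagen UMIs in replicates 1 and 2, 70.7% and 67.9% in perineurial cells and 69.0% and 64.9% in non-myelinating Schwann cells. Type IV genes gave 67.8% and 61.6% in endothelial cells, 54.4% and 46.0% in smooth muscle and 47.9% and 41.9% in pericytes, but 2.37% and 2.76% in fibroblasts. Transmembrane collagens took 8.39% and 10.9% of endothelial collagen and at most 5.36% in the other types except neurons (8.43% and 7.02%). The anchoring and other group took 14.7% and 15.7% in satellite glia, which was nearly all Col28a1. None of the shares given for these types overlapped with the fibroblast share of the same family.

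**Figure D1:**
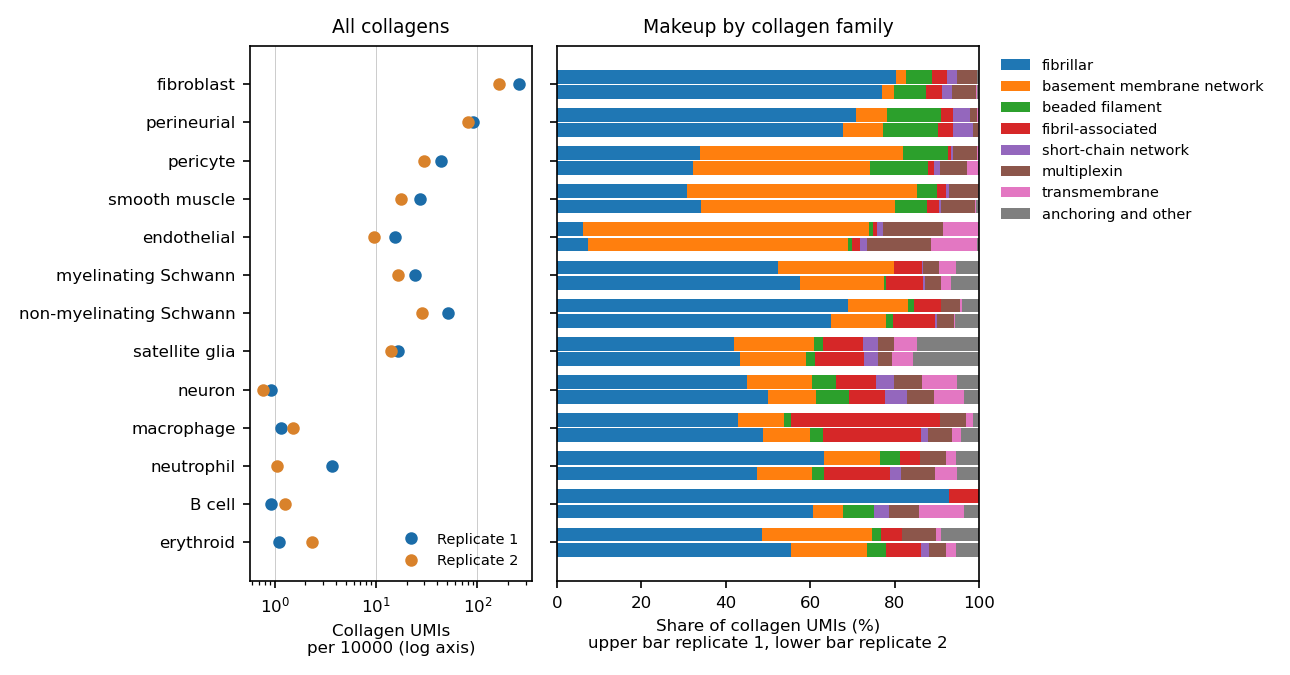
Left, total collagen UMIs per 10000 by cell type on a log axis, with a point for each library. Right, the share of collagen UMIs by collagen family in percent, with replicate 1 above replicate 2 in each type. Among the 9 types the fibrillar share is largest in fibroblasts (80.3% and 77.0%) and the type IV share in endothelial cells (67.8% and 61.6%).

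Of the 44 members, 3 reached a mean level of at least 10 in some type, 19 reached 1 to 10, 11 reached 0.1 to 1 and 11 stayed under 0.1. Of the 33 at 0.1 or more, 16 were highest in fibroblasts, and for 14 of those 16 the libraries did not overlap with the next type. Pericytes were highest for 4 members, perineurial and non-myelinating Schwann cells for 3 each, endothelial cells, myelinating Schwann cells and satellite glia for 2 each, and smooth muscle for 1. No member at 0.1 or more was highest in neurons. Such counts over all genes are not given, so these describe the members and show nothing particular to collagens. The filter on low counts left 34 members. All 34 differed over the 9 types at an adjusted p under 0.05 (edgeR quasi-likelihood F test, Benjamini-Hochberg over 12872 genes). Since 88.8% of all genes tested were called in that test, the count says little about collagens. The other 10 members (Col10a1, Col17a1, Col19a1, Col20a1, Col22a1, Col4a6, Col6a4, Col6a6, Col7a1 and Col9a1) had mean levels of at most 0.0731 and 14 to 242 UMIs over the 9 types.

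Type I and type III collagen led in fibroblasts. Type I collagen, the main collagen of tendon, skin and nerve sheath, is built from Col1a1 and Col1a2, and type III collagen from Col3a1 alone. The 300 bases around the RefSeq start sites of Col1a2 (build GRCm38.p6, chr6:4505368-4505667, plus strand) and Col3a1 (chr1:45311288-45311587, plus strand) are shown because these genes led in fibroblasts. Each runs 5′ to 3′ from 250 bases before the start to 50 after it. Capitals mark the CCAAT box (CCAAT, or ATTGG on the opposite strand), the GC box (GGGCGG or CCGCCC) and the TATA box (TATAAA or TTTATA).
Col1a2: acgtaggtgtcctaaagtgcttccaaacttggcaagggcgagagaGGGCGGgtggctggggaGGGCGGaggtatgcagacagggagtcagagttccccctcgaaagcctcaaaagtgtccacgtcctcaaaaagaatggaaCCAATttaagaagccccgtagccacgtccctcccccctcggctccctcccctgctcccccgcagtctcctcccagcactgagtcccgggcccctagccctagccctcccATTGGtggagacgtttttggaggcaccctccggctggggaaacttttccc
Col3a1: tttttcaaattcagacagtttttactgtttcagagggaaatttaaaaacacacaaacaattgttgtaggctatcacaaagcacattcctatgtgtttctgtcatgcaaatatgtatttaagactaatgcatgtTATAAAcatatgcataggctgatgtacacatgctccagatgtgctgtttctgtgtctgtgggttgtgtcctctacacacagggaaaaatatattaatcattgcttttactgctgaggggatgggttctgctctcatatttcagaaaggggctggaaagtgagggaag
The Col1a2 window held 2 CCAAT boxes and 2 GC boxes and no TATA box, and the Col3a1 window held 1 TATA box and neither of the others. The GENCODE annotation starts Col1a2 at 4504814, outside its RefSeq window. The absence of a TATA box thus holds for the printed bases only, not for the Col1a2 promoter as a whole. Of all 32841 RefSeq windows of that length, 37.4% held a CCAAT box, 35.7% a GC box and 13.6% a TATA box. The table matched 35 of the 44 members with 38 windows, of which 34.2%, 60.5% and 13.2% held them. These matches describe letters and not bound sites.

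Col1a2 stood at 75.5 and 47.4 UMIs per 10000 in fibroblasts of replicates 1 and 2 and at 25.5 and 20.1 in perineurial cells. Col3a1 stood at 59.7 and 37.5 in fibroblasts and at 14.7 and 18.2 in perineurial cells. Col1a1 stood at 55.3 and 30.3 in fibroblasts and at 17.9 and 12.4 in perineurial cells. For all 3 genes both fibroblast libraries lay above every other type, and perineurial cells came next. Below those, Col1a2 was at 10.8 and 6.20 in non-myelinating and 7.69 and 5.46 in myelinating Schwann cells, whereas Col1a1 in myelinating Schwann cells was 1.12 and 0.775.

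Against the mean of the other 8 types, 26 of the 34 tested collagens were higher in fibroblasts and 0 were lower. Of all genes tested, 18.7% were higher and 8.27% were lower. The median log2 difference of the collagens was 3.46, or 3.02 with types at 0 UMIs set to a floor of 3 UMIs over the type, against 0.05 for all genes. Col1a1 had a log2 difference of 6.71 ± 0.19 (SE, adjusted p = 3.76e-14, edgeR) and Col3a1 of 5.07 ± 0.15 (adjusted p = 4.80e-14). The difference averages the logs of the 8 types, so neurons and endothelial cells, where these genes were near 0, weigh as much as perineurial cells. By family, 8 of 11 fibrillar, 4 of 4 beaded filament, 4 of 5 type IV, 4 of 5 fibril-associated, 2 of 2 short-chain and 2 of 2 multiplexin genes tested were higher. The count of 0 lower was also 0 at an unadjusted p under 0.05 in edgeR and 0 in DESeq2, while named clusters in place of gated cells gave 1. Col4a1 (0.27, adjusted p = 0.30), Col28a1, Col27a1, Col11a2, Col24a1, Col25a1, Col13a1 and Col9a3 did not pass.

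Fibroblasts also led in collagens of other families. Col15a1, a multiplexin of the zone between basement membranes and fibres, stood at 10.5 and 8.40 against 1.09 and 0.609 in non-myelinating Schwann cells, the next type (log2 difference from the other 8 types 6.11 ± 0.15, adjusted p = 6.16e-15). Col6a1 and Col6a2, chains of beaded filaments, stood at 7.24 and 5.85 and at 4.40 and 3.48, and were higher than the other 8 types by 6.05 ± 0.17 and 5.84 ± 0.16 (adjusted p = 2.70e-14 and 3.22e-14). For Col6a1 the fibroblast libraries overlapped with the perineurial ones, which were 6.40 and 5.84. Col12a1, a fibril-associated collagen, stood at 5.23 and 2.71, with perineurial cells at 1.93 and 2.38 (5.76 ± 0.21 from the other 8 types, adjusted p = 9.17e-13). Col26a1, a small secreted collagen, stood at 0.973 and 0.804, with myelinating Schwann cells next at 0.222 and 0.110 (5.99 ± 0.25, adjusted p = 3.79e-12).

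A pair of genes best known from cartilage was found in fibroblasts. Col2a1, whose product forms the fibrils of cartilage, stood at 0.896 and 0.565, and its mean was 278 times the mean of the other 8 types (adjusted p = 1.02e-09, edgeR). In the next type, pericytes, it was at 0.0304 and 0. Col9a2, whose product decorates type II fibrils, stood at 2.41 and 1.97 against 0.155 and 0.159 in satellite glia, the next type (adjusted p = 2.03e-14, edgeR). Col8a2, a short-chain collagen, was called as well (adjusted p = 2.10e-09, edgeR), but its fibroblast values of 0.707 and 0.407 overlapped with the perineurial 0.602 and 0.620.

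The enzymes that modify, fold and trim collagen chains followed the same direction. Of 29 tested, 26 were higher in fibroblasts and 0 lower, with a list median of 1.66 against 0.05 for all genes. Adamts2, which removes the amino end of fibrillar procollagens, was higher by 5.68, the crosslinking enzyme Lox by 5.09, Pcolce, an enhancer of procollagen cleavage, by 4.99, and Loxl1 by 4.18. Of 9 collagen receptors tested, 3 were higher and 1 lower (median 0.11), led by Mrc2, which takes up collagen for breakdown, at 7.84, the integrin Itga11 at 7.01 and the kinase Ddr2 at 3.57. Among 14 basement membrane partners 11 were higher and 2 lower (median 1.85), with the laminin gene Lama2 at 3.53 and Lama5 at −3.89. Of 7 proteases and inhibitors, 5 were higher and 1 lower (median 2.26), with the gelatinase Mmp2 at 7.69 and the inhibitor Timp3 at −1.14.

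Clustering without any collagen gene placed most gated fibroblasts in 2 clusters that held different collagens. These were cluster 27, with 170 and 305 cells, and cluster 23, with 47 and 86. Total collagen was close, 257 and 157 UMIs per 10000 in cluster 27 and 254 and 185 in cluster 23. Of 29 members with at least 20 UMIs, 7 were at least 2-fold higher in cluster 23 in both libraries and 6 at least 2-fold higher in cluster 27. These counts leave out Col2a1 and Col4a3, for which cluster 23 held 0 UMIs in replicate 1 and no fold was formed. Both stood higher in cluster 27 in both libraries, Col4a3 at 0.121 and 0.0861 against 0 and 0. Col12a1 stood at 21.0 and 11.7 in cluster 23 and at 0.0187 and 0.0331 in cluster 27, where it rested on 2 and 5 UMIs. Col14a1, another fibril-associated collagen, stood at 1.78 and 3.24 against 0.289 and 0.172. Col8a2 stood at 2.11 and 1.29 against 0.242 and 0.146. The clusters did not overlap for these 3 genes. Cluster 27 held nearly all Col2a1 of fibroblasts, with 1.19 and 0.722 against 0 and 0.0444. It also held nearly all Col9a2 (3.18 and 2.55 against 0.0846 and 0.0444) and Col26a1 (1.28 and 1.04 against 0.0564 and 0.0222), and it held more Col15a1 (13.4 and 10.4 against 1.72 and 1.67) and Col18a1 (1.67 and 1.13 against 0.169 and 0.311). Col1a2 overlapped, at 76.4 and 48.1 against 73.2 and 45.4. These clusters were made from the same cells, so the values are descriptions with no test. For the 2-fold counts no share over all genes is given, so they show nothing particular to collagens.

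Perineurial cells, the flattened cells of the sheath around a nerve bundle, carried less collagen than fibroblasts and no member passed as higher. Of 34 tested, 14 were lower (3.15% of all genes were lower) and 0 higher (2.65% of all genes were higher). The count of 0 higher was also 0 in DESeq2, and 1 collagen was higher at an unadjusted p under 0.05 in edgeR. Of simulated 2-fold changes only 22% were called in this comparison, so a count of 0 says little about rises near 2-fold. Col4a4, for example, was not called at 0.473 and 0.489, against 0.270 and 0.265 in fibroblast cluster 27 and 0.0564 and 0.0666 in cluster 23. Among families 7 of 11 fibrillar and 3 of 5 fibril-associated genes were lower, against 1 of 5 type IV and 1 of 4 beaded filament genes. The collagen median was −1.31, or −0.96 for the 32 members with a usable fold once types at 0 were set to the floor, against −0.16 for all genes. Col15a1, Col9a2, Col2a1 and Col26a1, which stood higher in fibroblast cluster 27, were lower by the largest folds. Col15a1 stood at 0.645 and 0.0978 in perineurial cells against 10.5 and 8.40 in fibroblasts, a log2 difference of −5.07 ± 0.34 (SE, adjusted p = 2.05e-07, edgeR). Col9a2 stood at 0.0859 and 0.0652 against 2.41 and 1.97 (−5.11 ± 0.39, adjusted p = 9.23e-07, edgeR). Col2a1 had 0 UMIs in perineurial cells against 239 in fibroblasts, at least 12.7-fold lower (adjusted p = 8.78e-04, edgeR), and Col26a1 had 2 against 297, a ratio of 23.6 with an exact 95% counting interval of 6.47 to 196.

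The fibrillar collagens were lower by smaller folds. The log2 difference was −1.65 ± 0.18 for Col1a2 (adjusted p = 3.24e-05, edgeR), −1.74 ± 0.28 for Col3a1 (adjusted p = 7.76e-04, edgeR) and −1.73 ± 0.35 for Col1a1 (adjusted p = 0.00531, edgeR). Col11a1, a fibrillar chain that regulates fibre width, stood at 0.688 and 0.750 against 3.54 and 2.26 (−2.20 ± 0.32, adjusted p = 3.74e-04, edgeR). Col14a1 stood at 0.0859 and 0.228 against 0.658 and 0.875 (−2.46 ± 0.59, adjusted p = 0.0177, edgeR). Col4a5 (−2.11 ± 0.55, adjusted p = 0.0292, edgeR) lost its call in DESeq2 and without the library term. In none of these did the libraries of the groups overlap. The main basement membrane chains did not pass, with Col4a1 at 3.70 and 4.83 against 3.08 and 2.35 (0.48 ± 0.26, adjusted p = 0.357) and Col4a2 at 2.23 and 2.15 against 2.08 and 1.58 (0.05 ± 0.22, adjusted p = 0.949). For both chains both perineurial libraries lay above both fibroblast libraries, by a margin the test did not call.

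**Figure D2:**
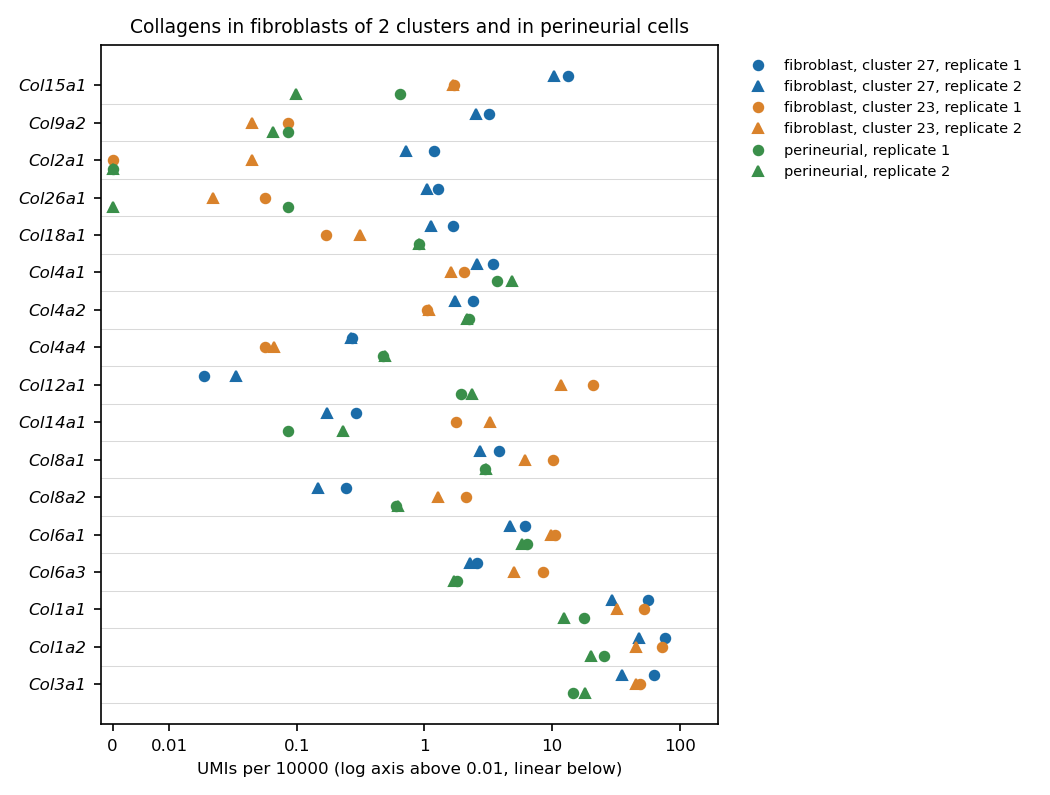
Levels of collagens in fibroblast cluster 27, fibroblast cluster 23 and perineurial cells, in UMIs per 10000 on an axis that is logarithmic above 0.01, with a point for each library. Col12a1 separates cluster 23 (21.0 and 11.7) from cluster 27 (0.0187 and 0.0331), and perineurial cells lie between them at 1.93 and 2.38.

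Of the 70 perineurial cells 67 fell in cluster 23, so they were also set beside the cluster 23 fibroblasts, as values with no test and chosen after the data were seen. Of 24 collagens with at least 10 UMIs on either side, 23 had UMIs on both sides in both libraries, and 17 of those were lower in perineurial cells in both. The share over all genes by this rule is not given, so the count shows nothing particular to collagens. The 6 higher in both were Col4a1 (1.82 and 2.98 times), Col4a2 (2.14 and 1.98), Col4a4 (8.38 and 7.34), Col18a1 (5.34 and 2.94), Col5a3 (1.86 and 1.65) and Col23a1 (2.44 and 1.31). The type IV chains Col4a1 and Col4a2 thus stood higher than in the fibroblasts of the same cluster. Col12a1 was lower, at 0.0921 and 0.203 times, and Col14a1 at 0.0484 and 0.0704 times. Col15a1 and Col14a1 moved by over 1.5 times on the linear scale from their values against all fibroblasts, to log2 −2.75 and −4.10.

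Around perineurial cells' collagens, 4 of 14 basement membrane partners were higher than in fibroblasts and 5 lower, with a list median of −0.50 against −0.16 for all genes. Among them Nid2, a linker of laminin and type IV collagen, was higher by 1.69, Lama4 by 1.01 and Lamb2 by 0.94, while Lamc3 (−5.02) and Lamb1 (−2.66) were lower. Of 29 processing enzymes 0 were higher and 4 lower (median −0.73), among them Lox (−2.28), Loxl1 (−1.95) and the chaperone Serpinh1 (−1.27), and 1 of 9 receptors was higher (median 0.36), the collagen-binding integrin Itga10 at 3.41. Of 7 proteases and inhibitors, 0 were higher and 2 lower (median −0.59), Mmp2 at −2.90 and Ctsk at −1.29. The perineurial sums were the smallest, with 232725 and 306620 UMIs.

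In endothelial cells and smooth muscle the leading collagens were the paired chains Col4a1 and Col4a2, which together make the type IV molecule common to all basement membranes. In pericytes Col4a1 led, and Col4a2 (8.53 and 5.63) and Col3a1 (9.01 and 5.21) overlapped. The genes lie head to head on chromosome 8 and overlap by 22 bases in the annotation. Their RefSeq windows (GRCm38.p6, Col4a1 chr8:11312777-11313076 on the minus strand and Col4a2 chr8:11312555-11312854 on the plus strand) share 78 bases, chr8:11312777-11312854. They are shown because the genes share this stretch and their levels followed each other across types. Capitals mark the same motifs as above, with 1 CCAAT box and 1 GC box in the Col4a1 window and 1 and 3 in the Col4a2 window. The Col4a1 GC box and the last GC box of the Col4a2 window are the same bases of the shared stretch, read from opposite strands.
Col4a1: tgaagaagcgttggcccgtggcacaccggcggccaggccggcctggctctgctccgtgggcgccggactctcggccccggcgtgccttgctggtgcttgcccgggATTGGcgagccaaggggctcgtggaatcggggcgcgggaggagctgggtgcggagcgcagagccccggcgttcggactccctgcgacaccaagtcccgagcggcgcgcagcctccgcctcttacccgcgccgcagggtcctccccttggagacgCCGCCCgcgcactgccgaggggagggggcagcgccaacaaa
Col4a2: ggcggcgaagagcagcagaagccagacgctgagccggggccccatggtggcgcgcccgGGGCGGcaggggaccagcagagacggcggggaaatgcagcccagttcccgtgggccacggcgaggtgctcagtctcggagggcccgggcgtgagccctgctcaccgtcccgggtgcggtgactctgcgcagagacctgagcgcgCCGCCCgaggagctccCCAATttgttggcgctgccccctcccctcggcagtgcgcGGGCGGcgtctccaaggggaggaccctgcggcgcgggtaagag
Col4a1 stood at 11.4 and 6.18 UMIs per 10000 in pericytes of replicates 1 and 2, 8.30 and 4.17 in smooth muscle and 5.82 and 3.50 in endothelial cells. Col4a2 stood at 8.53 and 5.63 in pericytes, 4.97 and 2.96 in smooth muscle and 4.13 and 2.17 in endothelial cells. Replicate 1 was higher in each, and for Col4a1 the pericyte and smooth muscle libraries overlapped, though pericytes were higher within each library. Non-myelinating and myelinating Schwann cells held Col4a1 at 4.87 and 2.56 and at 4.38 and 2.17. These overlapped with the endothelial values, which were higher within each library.

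Pericytes, which sit on the outer face of capillaries, were compared with the endothelial cells that line them, since both share a basement membrane. Of 34 collagens tested, 14 were higher in pericytes (15.8% of all genes were higher) and 4 lower (17.9% of all genes were lower), with a median of 1.08, or 1.18 at the floor, against −0.04 for all genes. By family, 6 of 11 fibrillar, 3 of 5 type IV and 3 of 4 beaded filament genes were higher. Col4a2 was higher by 1.03 ± 0.19 (SE, adjusted p = 3.47e-04, edgeR) and Col4a1 by 0.72 ± 0.24 (adjusted p = 0.0270, edgeR). Other collagens differed by more. Col6a1 stood at 2.07 and 1.90 in pericytes and at 0.0468 and 0.0234 in endothelial cells (5.69 ± 0.37, adjusted p = 4.56e-09, edgeR), and Col6a2 and Col6a3 were higher by 5.30 and 4.57. Col3a1 stood at 9.01 and 5.21 against 0.375 and 0.211 (4.43 ± 0.32, adjusted p = 1.17e-08, edgeR), and Col1a2 at 3.88 and 2.43 against 0.264 and 0.207 (3.53 ± 0.20, adjusted p = 1.34e-09, edgeR). Col1a1 was at 0.122 and 0.230 in pericytes, near the 0 to 0.144 of blood and immune cells, so the type I chains were unequal there.

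Col4a5, an alternative type IV chain, stood at 0.684 and 0.299 in pericytes and at 0.0296 and 0.00722 in endothelial cells (4.61 ± 0.41, adjusted p = 1.38e-07, edgeR). Col5a1 (4.34), Col5a2 (2.40), Col16a1 (3.26) and Col27a1 (2.93) were also higher in pericytes. Endothelial cells were higher in Col13a1, a transmembrane collagen, at 1.19 and 0.989 against 0.106 and 0.368 (−2.35 ± 0.39, adjusted p = 3.02e-04, edgeR). They were also called higher in Col15a1 (−1.64 ± 0.50, adjusted p = 0.0170, edgeR) and Col4a3 (−1.28 ± 0.44, adjusted p = 0.0327, edgeR), but both calls were lost without the library term, under a stricter gate and with doublets kept. Col12a1 had 91 UMIs in endothelial cells and 1 in pericytes, a ratio of 14.5 with an exact 95% counting interval of 2.53 to 578. Col18a1, the source of endostatin, stood at 2.37 and 1.90 in pericytes, 2.00 and 1.31 in endothelial cells and 1.81 and 1.45 in smooth muscle. The pericyte and endothelial values overlapped, with pericytes higher within each library.

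Of 9 collagen receptors, 6 were higher in pericytes and 0 lower, with a median of 1.75 against −0.04. They included Mrc2 (5.17), Ddr2 (4.81), Itga10 (3.53) and Ddr1 (1.75). Of 29 processing enzymes 9 were higher and 5 lower (median 0.29), with the crosslinking enzyme Loxl2 at 5.13 and the collagen galactosyltransferase Colgalt2 at −3.42. Of 14 basement membrane partners 4 were higher and 3 lower (median −0.34), with Lama2 at 4.04 and Lamc3 at 3.58, and Lama3 (−5.33), the heparan sulphate proteoglycan Hspg2 (−3.00) and Lama4 (−1.96) lower. Of 7 proteases and inhibitors 3 were higher and 1 lower (median −0.15), with the inhibitors Timp4 at 5.82 and Timp3 at −0.85.

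Smooth muscle, the contractile cells of larger vessels, held less of the type VI chains Col6a1, Col6a2 and Col6a3 than pericytes. Gated smooth muscle cells also held pericyte markers, at medians of 51.0 and 72.4 UMIs per 10000 against 171 and 188 in pericytes and 329 and 295 of their own, and the part of this in the differences was not tested. Of 34 tested, 8 collagens were lower (2.73% of all genes were lower) and 2 higher (3.97% of all genes were higher), with a median of −0.48, or −0.78 at the floor, against −0.05. Col6a1 stood at 0.506 and 0.470 against 2.07 and 1.90 (−1.83 ± 0.35, adjusted p = 0.00293, edgeR). Col6a3 (−1.38), Col6a2 (−1.30), Col5a1 (−1.62), Col5a2 (−1.47) and Col3a1 (−1.20) were also lower. The calls for Col3a1, Col6a2, Col5a1 and Col5a2 were lost without the library term, those for Col3a1, Col6a1, Col6a2 and Col5a2 with doublets kept, and that for Col5a2 under a stricter gate. Col4a4 had 1 UMI in smooth muscle and 37 in pericytes, a ratio of 23.4 with an exact 95% counting interval of 3.94 to 947, and named clusters in place of gated cells ended its call. Col13a1 had 0 against 39, at least 8.21-fold lower.

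The leading collagens of smooth muscle after the type IV chains were Col1a2 (3.67 and 2.35) and Col3a1 (2.82 and 2.43). Col4a5 was higher than in pericytes, at 1.33 and 0.940 against 0.684 and 0.299 (1.46 ± 0.31, adjusted p = 0.00638, edgeR), a call lost without the library term. Both smooth muscle libraries lay above both pericyte libraries. Col1a1 stood at 0.927 and 0.633 against 0.122 and 0.230 (2.25 ± 0.54, adjusted p = 0.0159, edgeR). That difference turned to −2.14 with named clusters in place of gated cells and missed the threshold with doublets kept (1.94, adjusted p = 0.0956, edgeR), so its direction depended on how the cells were chosen. Among 14 basement membrane partners 3 were higher and 4 lower (median −0.80), with Hspg2 (2.37), Lama5 (2.19) and Lamb2 (0.98) higher and Lamc3 (−4.65) and Lama2 (−2.97) lower. Of 29 processing enzymes 2 were higher, Loxl1 (2.76) and Lox (2.43), and 2 lower (median −0.14). Of 9 receptors 0 were higher and 1 lower (median −0.11), and 1 of 7 proteases and inhibitors was higher (median −0.27), Timp4 at 3.94.

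**Figure D3:**
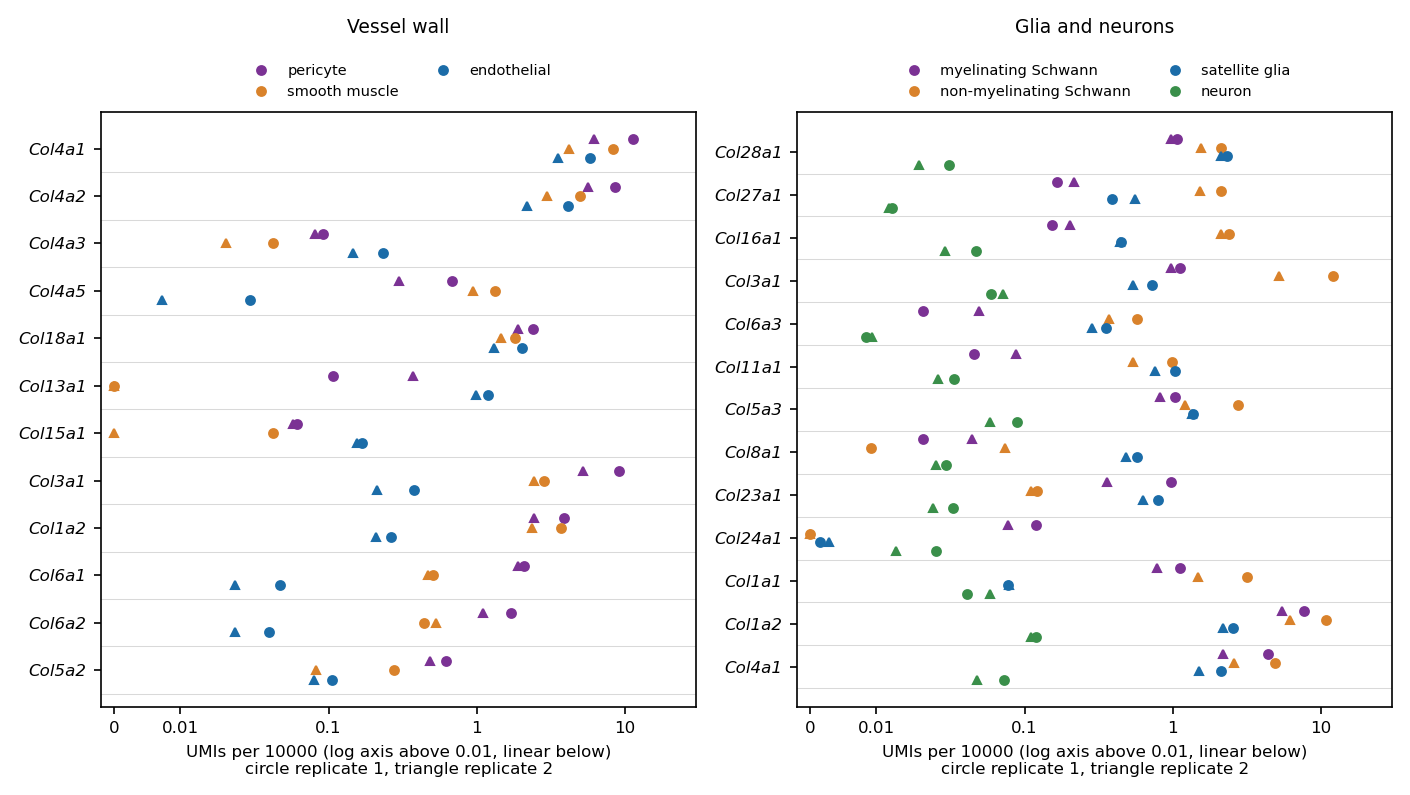
Levels of collagens in vessel cells (left) and in glia and neurons (right), in UMIs per 10000 on an axis that is logarithmic above 0.01, with a circle for replicate 1 and a triangle for replicate 2. Col6a1 is near 2 in pericytes (2.07 and 1.90) and under 0.05 in endothelial cells, and Col28a1 is at 1.55 to 2.32 in satellite glia and non-myelinating Schwann cells.

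Schwann cells of both kinds made collagen, but not the same set. Non-myelinating Schwann cells, which bundle thin axons, were higher than myelinating Schwann cells in 12 of 34 collagens (8.52% of all genes were higher) and lower in 3 (7.26% of all genes were lower). The median was 0.12, or 0.51 at the floor, against 0.00 for all genes. Col3a1 stood at 11.9 and 5.20 in non-myelinating and 1.11 and 0.967 in myelinating cells (2.84 ± 0.29, adjusted p = 2.49e-06, edgeR). Col16a1, a fibril-associated collagen, stood at 2.39 and 2.12 against 0.154 and 0.203 (3.56 ± 0.25, adjusted p = 3.38e-08, edgeR). Col27a1, a minor fibrillar collagen, stood at 2.11 and 1.53 against 0.165 and 0.214 (3.17 ± 0.24, adjusted p = 8.51e-08, edgeR). Both of these minor collagens were highest of all 9 types in non-myelinating Schwann cells, without overlap between libraries.

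Col11a1 (3.56 ± 0.36), Col6a3 (3.87 ± 0.36), Col18a1 (2.17 ± 0.23), Col5a2 (1.38 ± 0.21), Col5a1 (1.03 ± 0.23) and Col5a3 (0.92 ± 0.22) were higher too, with adjusted p from 8.18e-07 to 0.00604 in edgeR, and the Col5a3 call was lost without the library term. Col1a1 (1.12 ± 0.36, adjusted p = 0.0451, edgeR) lost its call in DESeq2, without the library term and with doublets kept. Col6a1 rested on 18 UMIs and 3, which gives a ratio of 22.9 (exact 95% counting interval 6.68 to 121). By family, 7 of 11 fibrillar, 2 of 4 beaded filament and 1 of 5 type IV genes were higher. Col23a1, a transmembrane collagen, was lower at 0.120 and 0.111 against 0.967 and 0.357 (−2.74 ± 0.39, adjusted p = 7.15e-05, edgeR). Col26a1 had 1 UMI in non-myelinating and 117 in myelinating cells, a ratio of 30.7 with an exact 95% counting interval of 5.40 to 1222. Col24a1 had 0 against 66, at least 5.77-fold lower in non-myelinating cells. Myelinating Schwann cells were thus the type with the highest Col24a1, at 0.119 and 0.0769.

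Of 29 processing enzymes, 8 were higher in non-myelinating Schwann cells and 1 lower (median 0.60 against 0.00), with Adamts2 at 3.96, the chaperone Fkbp10 at 3.09 and Lox at −3.81. The collagen-binding integrins Itga1 (4.71) and Itga2 (3.04) were higher, among 3 of 9 receptors higher and 0 lower (median 0.00). Of 14 basement membrane partners 2 were higher, Nid2 (2.55) and Sparc (0.74), and 0 lower (median 0.38). Of 7 proteases and inhibitors 4 were higher and 0 lower (median 2.29), with Mmp2 at 2.65 and Ctsk at 2.40.

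The collagen that set the glia apart was Col28a1, a beaded-filament-like collagen known from peripheral nerve. It stood at 2.32 and 2.12 in satellite glia, 2.12 and 1.55 in non-myelinating and 1.07 and 0.973 in myelinating Schwann cells, and at most 0.102 in the other 6 types. Glia of all 3 kinds therefore lay above every other type, and satellite glia and non-myelinating cells overlapped. Against the mean of the 2 Schwann types, 11 collagens were higher in satellite glia (17.1% of all genes were higher) and 9 lower (13.5% of all genes were lower), with a median of 0.15 against 0.03, which turned to −0.48 with types at 0 set to the floor. Col28a1 was higher by 0.95 ± 0.18 (adjusted p = 8.08e-04, edgeR), a call lost in DESeq2. Col8a1, a short-chain collagen, stood at 0.571 and 0.479 against 0.00927 and 0.0738 in non-myelinating and 0.0206 and 0.0440 in myelinating cells (4.43 ± 0.34, adjusted p = 4.99e-08, edgeR). Col11a1 stood at 1.04 and 0.758, against 0.991 and 0.535 in non-myelinating and 0.0458 and 0.0879 in myelinating cells, and the satellite and non-myelinating values overlapped (2.33 ± 0.23 against the mean of both Schwann types, adjusted p = 9.79e-07, edgeR).

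Col12a1 (1.88), Col23a1 (1.68), Col6a3 (1.66) and Col9a2 (1.44) were also higher in satellite glia, as were Col26a1 (1.84) and Col4a4 (0.74), whose calls were lost without the library term and under a stricter gate, for Col26a1 also with named clusters and for Col4a4 with doublets kept. Type I and III collagen were lower. Col1a1 stood at 0.0771 and 0.0790 in satellite glia, within the 0 to 0.144 of blood and immune cells (−3.97 ± 0.37, adjusted p = 4.52e-07, edgeR), while Col1a2 stood at 2.53 and 2.18 (−1.38 ± 0.16, adjusted p = 5.47e-06, edgeR). Satellite glia thus held Col1a2 far above Col1a1. Col5a3, a type V chain, stood at 1.37 and 1.35, inside the range of the Schwann types. Col5a1 (−2.43), Col3a1 (−1.97), Col18a1 (−1.31), Col9a3 (−1.0), Col4a2 (−0.98), Col4a1 (−0.65) and Col5a2 (−0.63) were lower as well, and the calls of Col4a1, Col4a2 and Col5a2 were lost without the library term.

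Of 29 processing enzymes, 9 were higher in satellite glia than in Schwann cells and 6 lower (median −0.13 against 0.03). P4ha3, a prolyl hydroxylase subunit, was higher by 3.91 and the peroxidase Pxdn, which crosslinks type IV collagen, by 2.04. Of 9 receptors 3 were higher and 0 lower (median 2.21), with Ddr2 at 2.76 and Lair1 at 2.33. Of 14 basement membrane partners 1 was higher, Nid1 (0.51), and 2 lower (median −0.15), with Hspg2 at −1.83. Of 7 proteases and inhibitors 3 were higher and 1 lower (median 0.41), with Ctsk at 2.57 and Mmp14 at 2.13.

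Neurons carried little collagen for their depth. Their cells held medians of 104801 and 57472 UMIs, and 38 of the 44 members stood at or under the highest value in blood and immune cells in at least 1 library. The same count over all genes is not given. These levels are shares of UMIs, and blood and immune cells were far shallower, at medians of 2480 to 8638 UMIs. Counted by cell, 93.4% and 81.7% of neurons held a collagen UMI, against 14.3% to 37.2% of cells of the blood and immune types. The part of depth in this was not tested. The blood and immune sums were small, from 153443 to 1359719 UMIs, so a highest value there can rest on very few UMIs. Against satellite glia, 28 of 34 collagens were lower (37.1% of all genes were lower) and 3 higher (32.9% of all genes were higher), with a median of −4.49 against −0.08. The highest members in neurons were Col1a2 (0.119 and 0.111), Col5a3 (0.0887 and 0.0583), Col3a1 (0.0590 and 0.0712), Col4a1 (0.0722 and 0.0475) and Col1a1 (0.0411 and 0.0589), all inside the range of blood and immune cells. Col28a1 stood at 0.0309 and 0.0194 in neurons against 2.32 and 2.12 (−6.72 ± 0.27, adjusted p = 6.54e-12, edgeR). Col14a1, Col27a1, Col12a1, Col6a3, Col5a2, Col4a1, Col11a1, Col26a1 and Col23a1 were lower by log2 −5.49 to −4.92. The 3 higher were Col24a1 (2.84 ± 0.57), Col6a2 (1.91 ± 0.37) and Col4a3 (1.81 ± 0.56), named after their values were seen, and each stood within the range of blood and immune cells in at least 1 library. The median of blood and immune cells was 0 for all 3, so that range does not settle whether these levels were background. For Col4a3, 22 UMIs of replicate 1 came from 10 cold-sensing neurons (TRPM8 class) of 607 neurons, so part of its level rested on few cells. Satellite glia markers stood at medians of 2.21 and 3.41 UMIs per 10000 in neurons against 199 and 191 in satellite glia, and their part in the neuron levels was not tested.

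Of 29 processing enzymes, 5 were higher in neurons and 21 lower (median −1.95), with Pcolce2 at 2.48 and Serpinh1 at −5.32. Receptors were 1 higher and 7 lower of 9 (median −1.98), with Itga2 at −5.72. Basement membrane partners were 0 higher and 10 lower of 14 (median −4.21), with Nid1 at −5.88, and proteases and inhibitors 0 higher and 4 lower of 7 (median −1.08), with Mmp14 at −6.23. Wherever a list count above is 0, at most 2 members reached an unadjusted p under 0.05 in that direction in edgeR.

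A few collagens marked classes of neurons. The fit held 7 classes with at least 20 cells in each library, of which NP1 to NP3 are non-peptidergic or itch-associated neurons, PEP-C and PEP-A peptidergic C-fibre and Kit- and Nefh-bearing neurons, TH low-threshold C-fibre touch receptors and NF large A-fibre neurons. Of 26 collagens tested, 17 differed over the classes, a share of 65.4% against 72.9% of all 13085 genes (edgeR F test). Every adjusted p given for a collagen in the neuron classes is from this test over all classes. No class was tested against the others. Col18a1 marked NP3, the class with Nppb and Sst among its markers, at 53.1 and 57.2 CPM (UMIs per 1000000 UMIs of the class) against at most 3.55 in any other tested class and library (adjusted p = 6.20e-09, edgeR). It had a UMI in 32 of 32 NP3 cells of replicate 1 and 25 of 31 of replicate 2, against 11 of 135 and 7 of 148 NP1 cells. The NP1 cells were deeper, with medians of 160082 and 81258 UMIs against 107214 and 61414. Most NP3 cells thus held Col18a1 and few NP1 cells did.

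Col25a1, a transmembrane collagen, stood at 17.1 and 11.5 CPM in PEP-A and 13.0 and 5.84 in PEP-C, against at most 1.61 elsewhere (adjusted p = 2.03e-07, edgeR). It was carried by few cells, 11 of 29 and 6 of 25 in PEP-A and 30 of 148 and 34 of 262 in PEP-C. Col16a1 stood at 19.0 and 21.2 in PEP-A, against 7.11 and 2.59 in PEP-C and 5.71 and 5.78 in NF (adjusted p = 1.52e-05, edgeR). Both PEP-A libraries lay above every other tested class for Col16a1, while for Col25a1 the PEP-A and PEP-C libraries overlapped. The depth of the classes differed, and the part of that in these shares was not tested.

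**Figure D4:**
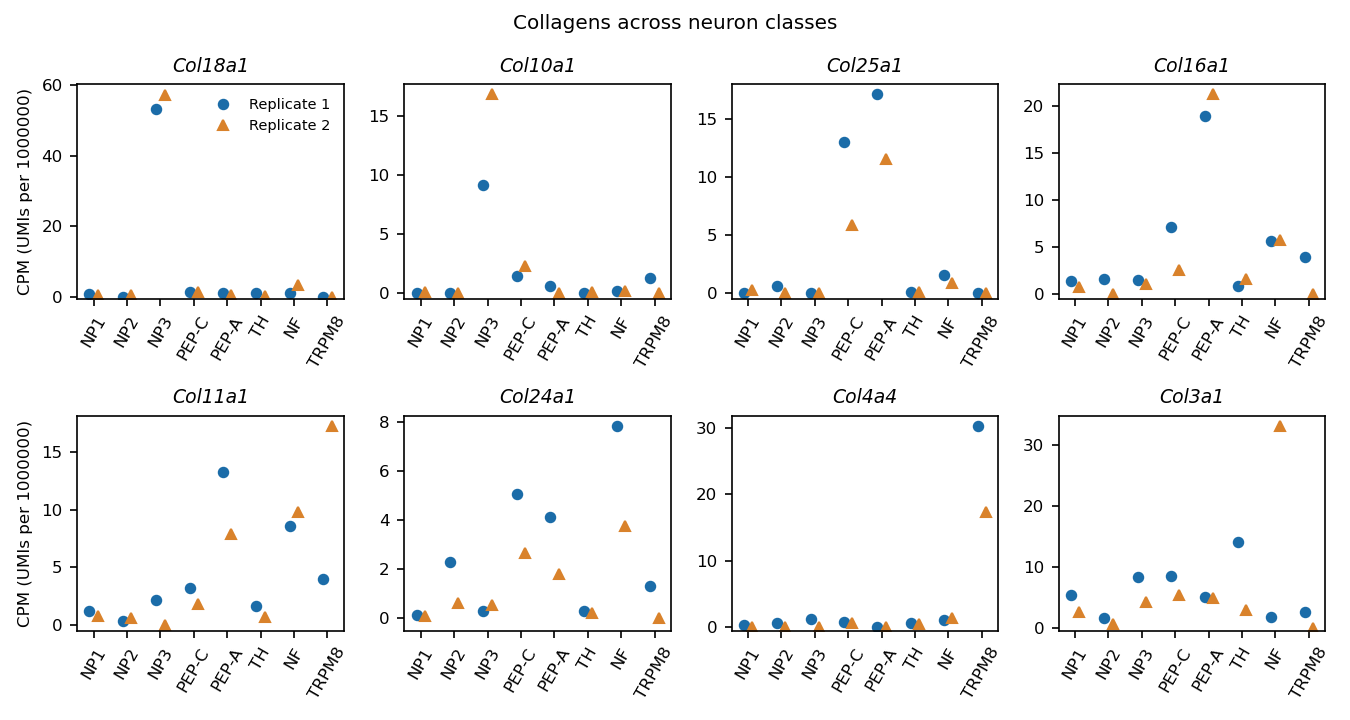
CPM (UMIs per 1000000) of collagens in each neuron class, with a point for each library, on linear axes. Col18a1 is highest in NP3 (53.1 and 57.2) and Col16a1 is highest in PEP-A (19.0 and 21.2).

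Lower collagens of the neuron classes fell outside the naming rule and were chosen after their values were seen. Their adjusted p-values are again from the edgeR F test over all classes. Col10a1, known from growing cartilage, stood at 9.15 and 16.8 CPM in NP3 against at most 2.29 in the other tested classes (adjusted p = 1.06e-06, edgeR). Blood and immune cells held 0 UMIs of it in both libraries. Col11a1 stood at 13.3 and 7.89 in PEP-A and 8.57 and 9.78 in NF, and Col24a1 at 7.86 and 3.78 in NF. Col19a1 stood at 3.21 and 5.78 in NF against at most 0.117 elsewhere (adjusted p = 1.08e-04, edgeR). The NF class of replicate 2 also held fibroblast collagens, with Col1a1 at 35.5 against 2.50 in replicate 1 and Col3a1 at 33.1 against 1.79. Without the NF class the omnibus count was 16 rather than 17.

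Chains of a single collagen molecule kept steady proportions in some types and not in others. The ratio of Col4a1 to Col4a2 UMIs was lowest in pericytes at 1.33 and 1.10 and highest in satellite glia at 2.76 and 2.87, with non-myelinating Schwann cells at 2.48 and 2.44, fibroblasts at 1.48 and 1.49 and endothelial cells at 1.41 and 1.61. The glial ratios lay above those of all vessel cells in both libraries. The ratio of Col1a1 to Col1a2, which is 2 chains to 1 in the type I molecule, was 0.733 and 0.640 in fibroblasts, 0.70 and 0.617 in perineurial cells, 0.291 and 0.238 in non-myelinating and 0.146 and 0.142 in myelinating Schwann cells, and 0.0304 and 0.0362 in satellite glia. Fibroblasts and perineurial cells overlapped, and the 3 glial types followed below them without overlap. Col6a3 to Col6a1 was 0.562 and 0.495 in fibroblasts but 50.1 and 19.5 in satellite glia, where Col6a1 had 14 and 26 UMIs. UMIs at the 3′ end are not protein, and capture can differ between the chains.

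Neighbouring collagen genes were followed across types. The 44 genes lie on 15 chromosomes in the GENCODE mouse annotation (release 21 of the M series, GRCm38), and 8 pairs lie within 100000 bases of each other. Col4a1 (ENSMUSG00000031502) lies on chromosome 8 from 11198423 to 11312826 and Col4a2 (ENSMUSG00000031503) from 11312805 to 11449287. Their log2 levels correlated over the 9 types with r = 0.98. Col3a1 and Col5a2, 24614 bases apart on chromosome 1, gave r = 0.91, and Col6a1 and Col6a2, 85161 apart on chromosome 10, gave r = 0.99. Col4a3 and Col4a4 lie head to head 71 bases apart on chromosome 1, yet gave r = 0.38. Endothelial cells were highest in Col4a3 (0.232 and 0.146) and perineurial cells in Col4a4 (0.473 and 0.489). Unlinked genes gave values as high, with 0.90 for Col1a1 and Col1a2 and 0.96 for Col5a1 and Col5a2, and 0.14 for the multiplexins Col15a1 and Col18a1. These are descriptions over 9 types of the same 2 libraries, with no test.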

How the data were processed

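Single-cell 3′ v3.1 libraries of the ganglia were deposited as raw UMI counts per gene and barcode, made with Cell Ranger 5.0.1 and CASAVA 1.8 on build mm10 per the submitters' processing notes. The deposited barcode and gene lists (unit other) hold names only. The cell calling and the annotation were not given in the sources used here. The collagens and gene lists were chosen with earlier results of these data known.

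Cells needed 500 detected genes and less than 20% mitochondrial UMIs. Scrublet in scanpy 1.11.5, left to its own threshold, marked only 1 and 0 cells as doublets. The top scores were dropped in its place at a rate of 0.8% per 1000 cells, which took 555 and 1020. A cell took a type if its marker score was at least 0.35 with 4 markers and led the next by 0.10. Neurons needed 10 markers and 10000 UMIs. Perineurial cells needed a score of 0.20, 3 markers and no other score above 0.30 outside the fibroblast one, a rule eased after the data were seen so that both libraries held 20 cells. Counts were summed per type and library and tested with edgeR 4.0.16 (R 4.3.3), with TMM factors, its filter on low counts, the quasi-likelihood test, a design of type plus library, and Benjamini-Hochberg adjustment over all genes at 0.05. Sums of a library come from 1 suspension, which is what pairs them. The broad fit had 18 sums and 8 residual degrees of freedom, the neuron fit 14 and 6. No other scaling moved the median of all genes by over 0.1. For fibroblasts minus the mean of the other 8 types, simulated data with 12048 genes gave back 90% of 2-fold and 100% of 4-fold changes, and 22% and 97% for perineurial minus fibroblast cells. The changed genes had a mean of at least 10 CPM, so these shares do not cover lower collagens. Each simulated gene had the same mean in all types apart from the change, a common dispersion and no library difference. Leiden clusters (2000 variable genes, 30 components, 15 neighbours, resolution 1) left all collagens out. Named were, per type, the 5 highest members, per contrast up to 10 called members a direction at 10 CPM, and in neurons called members at 10 CPM in both libraries. Intervals and floors (3 UMIs) cover counting error only. Promoter windows came from RefSeq (GRCm38.p6) and positions from GENCODE (mouse release 21 of the M series).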

Additional observations from a re-analysis of the deposited data

How the results depend on the processing

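Each comparison was repeated with RLE factors, DESeq2 1.42.0, no filter, no library term (no replicate block), a stricter gate, named clusters in place of gated cells, doublets kept and without each replicate. The counts of collagens called stayed within 1.5 times except as follows. Fibroblasts had 1 lower collagen with clusters, against 0. Endothelial-higher collagens (pericyte minus endothelial, lower) were 2 rather than 4 with no replicate block, under the stricter gate and with doublets kept. Smooth muscle minus pericyte gave 1 higher rather than 2 with no replicate block and with doublets kept, and 3 and 5 lower rather than 8 under those settings. Non-myelinating minus myelinating Schwann cells gave 5 lower rather than 3 with no filter and under the stricter gate. Of 735 repeated log2 differences of named collagens, 697 kept direction and side of the threshold or moved within the spread, 34 missed the threshold, 3 moved beyond the spread and 1 reversed, Col1a1 in smooth muscle minus pericyte at −2.14 with clusters. The cause was not tested. Leaving out either replicate reversed none of the 82 log2 differences, given as values since no degrees of freedom remain. Perineurial cells had no cluster of their own, and PEP-A and NP2 none or too few cells under clusters, so those values were not run. Of 265 repeated levels, 249 moved within the spread. With 23 and 47 perineurial cells, changes near 2-fold there were mostly not detectable. The AEW treatment, with a single group, could not be assessed.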

Other observations

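The 14 neurons of the TRPM8 class, cold-sensing neurons with 10 cells in replicate 1 and 4 in replicate 2, were too few for the tests. They held Col4a4 at 30.2 and 17.3 CPM (UMIs per 1000000) and its head-to-head neighbour Col4a3 at 28.9 and 5.75. In the 7 tested classes Col4a4 was at most 1.33 and Col4a3 at most 0.893 in either library. In replicate 1, 6 of 10 TRPM8 cells held a Col4a4 UMI and 7 of 10 a Col4a3 UMI, and in replicate 2 the counts were 3 of 4 and 1 of 4. Those replicate 2 values rest on 3 UMIs and 1 UMI, and the exact 95% counting intervals of 3.56 to 50.4 and 0.146 to 32.1 CPM overlap with the replicate 1 values. These genes encode chains of the type IV collagen best known from the kidney filter. Some of the broad types reached similar or higher levels. Perineurial cells held Col4a4 at 47.3 and 48.9 CPM, above both TRPM8 values, and pericytes at 30.4 and 19.5. Endothelial cells held Col4a3 at 23.2 and 14.6 CPM, between the TRPM8 values.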
